A study of Homo sapiens with 4 samples.

Results

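Long noncoding RNA (lncRNA) promoters held 358 of the 13926 SMAR1 peaks in the series, 135 of 5709 in HCT116 p53+/+ cells and 223 of 8217 in HCT116 p53-/- cells. A peak was counted when its centre lay within 1 kb of the nearest annotated transcription start site (TSS) on chromosomes 1 to 22 and X, and that TSS belonged to a lncRNA gene. The rule used position alone and no score. HCT116 cells come from a human colorectal carcinoma and were used here as the line with p53 (p53+/+) and as its derivative in which the p53 gene was knocked out (p53-/-), both grown untreated in the same medium. Chromatin was immunoprecipitated with an antibody to SMAR1 and sequenced, with 1 library per cell line, so no difference between the cell lines had a replicate check. IgG libraries of the same lines were not analysed here. By the alignment statistics of the study the p53-/- library was deeper than the p53+/+ library, and genotype and depth cannot be told apart.

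SMAR1, also named BANP, is a nuclear matrix protein that binds matrix attachment regions, interacts with p53 and can recruit histone deacetylase complexes to promoters. BANP is also known to recognise unmethylated CGCG elements in CpG island promoters. Many lncRNAs start close to a coding gene and run away from it on the opposite strand, so that a shared promoter region serves the divergent pair, while others start far from any coding gene. At a shared promoter a peak cannot be assigned to the lncRNA or to the coding start.

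The peaks at lncRNA promoters fell into sequence kinds that looked unlike each other. The first kind held the 6 letters TCGCGA within 150 bp either side of the peak centre, read on either strand since the letters are palindromic. These letters are the centre of the 8-letter palindrome CTCGCGAG, so each CTCGCGAG is also counted as a TCGCGA. The shorter word was chosen after the 8-letter words of these peaks had been counted, and CGCG and CGCGAG had been looked at too. The next sequences are 40 bp windows around the TCGCGA nearest the centre of high-scoring peaks (for the first 7, the p53+/+ centre), from hg19, written in the direction of lncRNA transcription with the 6 letters in capitals. The first 7 belong to peaks found in both cell lines and the last to a peak found in p53-/- cells. For ERCC6L2-AS1 and PPP4R3B-DT another copy was nearest the p53-/- centre.
ENSG00000271780, chr14:102414488-102414527, plus strand: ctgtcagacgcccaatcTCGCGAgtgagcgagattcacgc
ERCC6L2-AS1, chr9:98637767-98637806, minus strand: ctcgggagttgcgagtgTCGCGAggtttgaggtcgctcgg
RBM15-AS1, chr1:110881608-110881647, minus strand: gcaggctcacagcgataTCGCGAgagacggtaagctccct
PPP4R3B-DT, chr2:55844855-55844894, plus strand: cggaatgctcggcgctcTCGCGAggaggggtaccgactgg
SNHG16, chr17:74553776-74553815, plus strand: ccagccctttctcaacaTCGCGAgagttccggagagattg
SEPTIN7-DT, chr7:35840575-35840614, minus strand: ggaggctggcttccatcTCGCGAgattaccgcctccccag
TMCO1-AS1, chr1:165738228-165738267, plus strand: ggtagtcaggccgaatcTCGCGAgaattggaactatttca
DNAJC27-AS1, chr2:25194954-25194993, plus strand: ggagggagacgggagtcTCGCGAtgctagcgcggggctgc

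The letter that followed TCGCGA was G in these windows except in DNAJC27-AS1, which had a T there. The letter after that G was A in RBM15-AS1, SNHG16, SEPTIN7-DT and TMCO1-AS1. It was T in ENSG00000271780 and G in ERCC6L2-AS1 and PPP4R3B-DT. The most frequent 8-letter word in the peaks without a repeat was TCGCGAGA, read on both strands. It occurred in 23 of 77 such windows in p53+/+ cells (29.9%) and in 39 of 113 in p53-/- cells (34.5%). The same word was present in 79 of 18592 windows of that length centred on 1 TSS per lncRNA gene (0.425%). The word was picked as the most frequent one in these same peaks, and the windows were not matched for base composition. The shares are therefore a description and no test. TCGCGAGA overlaps both TCGCGA and, where preceded by C, CTCGCGAG.

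The next kind held an uninterrupted run of TC and TG dinucleotides, on either strand, of at least 12 bp inside the peak. The following are whole peaks with the longest run in capitals, on the strand that reads T first, and they are shown because they include the highest-scoring short repeat peak and repeat peaks at well-studied lncRNA genes.
PROX1-AS1, chr1:214161755-214161798, minus strand: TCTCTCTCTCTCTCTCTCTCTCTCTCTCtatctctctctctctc
CDKN2B-AS1, chr9:22118258-22118304, minus strand: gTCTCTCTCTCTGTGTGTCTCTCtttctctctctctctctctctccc
CDKN2B-AS1, chr9:21993791-21993843, plus strand: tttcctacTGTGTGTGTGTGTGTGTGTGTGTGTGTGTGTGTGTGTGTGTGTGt
MIAT, chr22:27043330-27043391, minus strand: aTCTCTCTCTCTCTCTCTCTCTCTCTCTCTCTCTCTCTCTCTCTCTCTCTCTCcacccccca

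These peaks consisted almost wholly of repeat. The central 31 bases of the PROX1-AS1 peak occurred 26 times in hg19, and those of the MIAT peak 21055 times. Of the CDKN2B-AS1 peaks, the first had central bases found once and the second had central bases found 171118 times. Reads holding only the latter bases could not be placed by sequence alone, and reads were not looked at.

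A further kind held neither feature. TERC, the gene for the RNA template of telomerase, was its highest-scoring example in p53-/- cells. Its p53+/+ peak is shown whole on the strand of TERC, with the bases that are transcribed in capitals.
TERC, chr3:169482811-169482955, minus strand: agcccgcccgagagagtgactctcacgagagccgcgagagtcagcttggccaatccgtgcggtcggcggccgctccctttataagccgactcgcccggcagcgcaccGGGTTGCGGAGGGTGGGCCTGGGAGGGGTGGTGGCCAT

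In p53+/+ cells the 135 peaks divided into 25 with TCGCGA, 56 with a repeat, 2 with both and 52 with neither. The 223 peaks of p53-/- cells divided into 50, 106, 4 and 63 in the same order. The kinds had different places and sizes. Peaks with TCGCGA alone had a median length of 246 bp in p53+/+ cells and 382.5 bp in p53-/- cells, and their centres lay a median of 34.5 and 47.5 bp from the TSS. Repeat peaks had median lengths of 54.5 and 62 bp and lay a median of 549 and 509.5 bp away. Peaks with neither had median lengths of 78.5 and 179 bp and lay a median of 298 and 76 bp away. Of the peaks with TCGCGA alone, 22 of 25 in p53+/+ cells (88.0%) and 43 of 50 in p53-/- cells (86.0%) were centred within 200 bp of the TSS, against 11 of 56 (19.6%) and 25 of 106 (23.6%) of the repeat peaks. The window that defined the TCGCGA kind was the same for every peak, whatever its length.

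The score of a peak is its MACS p-value on a scale of -10 log10, as read from the values, and it is compared only within a library because it grows with depth. In p53+/+ cells the peaks with TCGCGA alone scored from 51.5 to 967.0, with a median of 161.7. Repeat peaks scored from 50.2 to 215.7 with a median of 67.8, and peaks with neither from 52.4 to 190.1 with a median of 68.0. In p53-/- cells the medians were 370.6, 74.6 and 93.1 in that order, with highest scores of 3177, 637.5 and 928.4. All kinds overlapped at the low end, and the scores above those of every repeat peak were from TCGCGA peaks in p53+/+ cells. TERC, SF1-DT and ZNF337-AS1 also scored above every repeat peak of p53-/- cells without holding TCGCGA.

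**Figure D1:**
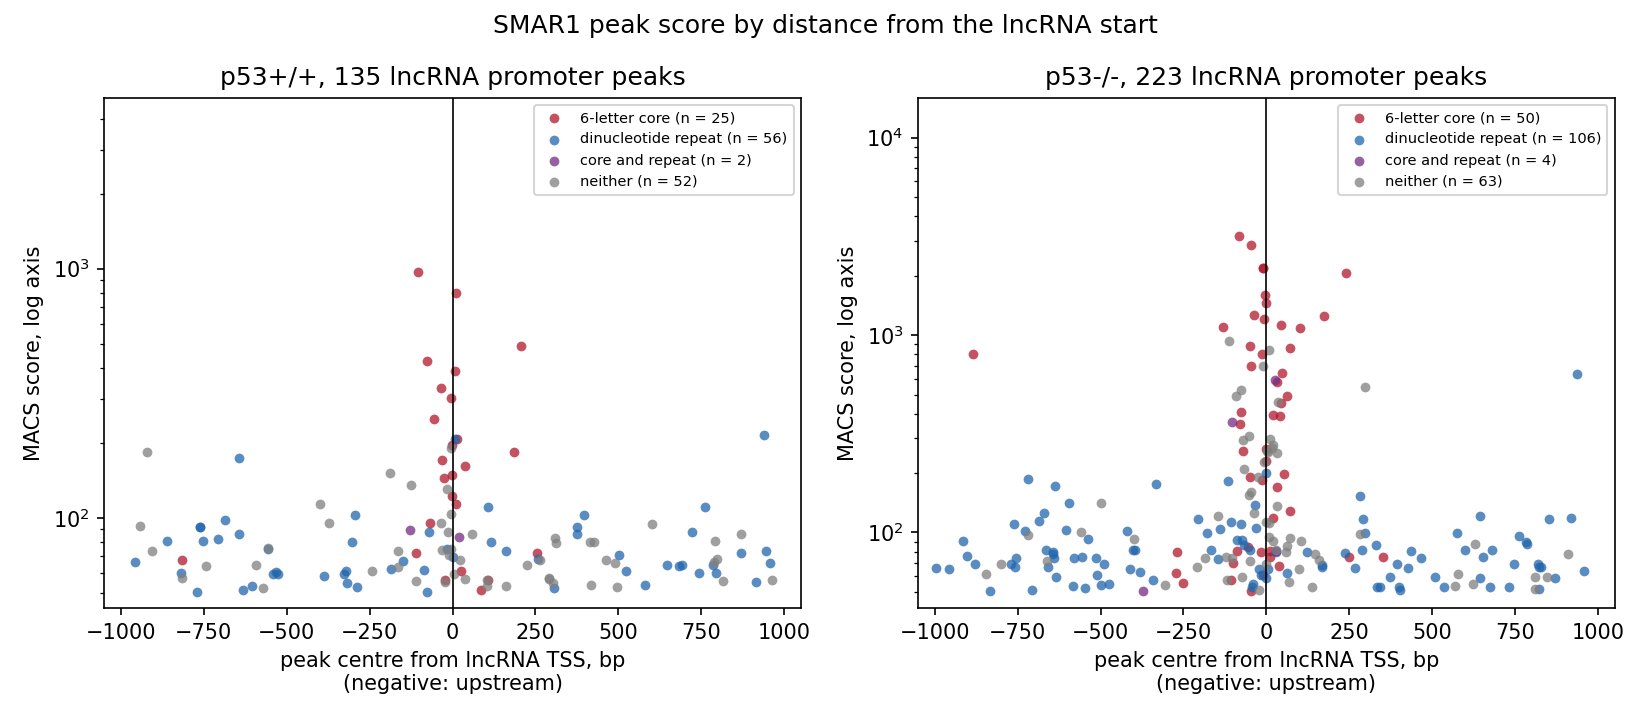
MACS score (log axis) of each lncRNA promoter peak against the distance of its centre from the lncRNA TSS in bp, negative values being upstream, in p53+/+ (left, 135 peaks) and p53-/- cells (right, 223 peaks). Points are peaks coloured by kind, where the 6-letter core is TCGCGA and the dinucleotide repeat is the TC and TG run; most of the highest scores stand near the TSS and carry the core, while repeat peaks spread over the whole window, mostly at low scores.

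The highest-scoring lncRNA promoter peak was the same in both cell lines and lay just upstream of ENSG00000271780, an unnamed lncRNA gene on chromosome 14. It spanned chr14:102414283-102414800 with a score of 967.0 in p53+/+ cells and chr14:102414192-102414934 with a score of 3177 in p53-/- cells. This was the highest p53-/- score of the whole list, coding promoters and distal sites included. The peak was centred 104.5 bp upstream of the TSS in p53+/+ cells and 83 bp upstream in p53-/- cells. Its nearest coding TSS was 16368.5 bp from the p53+/+ centre, so no coding gene shared this promoter. The window held CTCGCGAG once, and the central 31 bases occurred once in the genome.

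SNHG16, a host gene of small nucleolar RNAs, also had no divergent coding partner and was among the 5 highest lncRNA promoter peaks of both cell lines. Its peak scored 388.9 in p53+/+ cells and 2186 in p53-/- cells. It covered the TSS, with its centre 6 bp downstream and 11.5 bp upstream respectively. The TCGCGA nearest the centre lay 21.5 bp upstream of the TSS that was nearest in p53+/+ cells. ENSG00000272892, on chromosome 10 and 11282.5 bp from the nearest coding TSS, scored 249.6 and 1208, with 2 copies of TCGCGA in its window.

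The remaining top peaks stood at divergent pairs. The start of ERCC6L2-AS1 nearest to the peak lay 67 bp from that of ERCC6L2, which encodes a helicase-like protein linked to DNA repair. Its peak at chr9:98637551-98638093 scored 796.4 in p53+/+ cells and 2190 in p53-/- cells, with 2 copies of TCGCGA in the window. RBM15-AS1, 170 bp from the start of RBM15 (a subunit of the RNA m6A methylation machinery), scored 489.4 and 2072. PPP4R3B-DT, 247 bp from the start of PPP4R3B (a regulatory subunit of protein phosphatase 4), scored 424.4 and 2874, and also held 2 copies of TCGCGA. These peaks were all among the 5 highest of the lncRNA promoter peaks in each list.

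SEPTIN7-DT, whose annotated 5′ end overlaps that of the cytoskeletal GTPase gene SEPTIN7 by 17 bp, scored 302.2 in p53+/+ cells and 1600 in p53-/- cells. TMCO1-AS1, 7 bp from TMCO1 (an endoplasmic reticulum calcium channel), scored 207.2 and 860.0. ENSG00000273162, 984 bp from KAZALD1, scored 184.4 and 1253. EDRF1-DT scored 1458 and ENSG00000264808, partner of the kinase gene TAOK1, scored 1271 in p53-/- cells. Both overlapped a p53+/+ peak, but the TSS nearest to that p53+/+ peak was not theirs, so they had no member peak in p53+/+ cells.

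ENSG00000289950 on chromosome 19 was the exception among the 10 highest p53+/+ lncRNA promoter peaks. Its peak was 1652 bp long in p53+/+ cells and 1645 bp long in p53-/- cells, scored 215.7 and 637.5, held a run of 24 bp and no TCGCGA, and was centred 937.5 bp downstream of the TSS in an intron. Its central 31 bases occurred 2 times in hg19.

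The lncRNA genes with a promoter peak numbered 124 in p53+/+ cells and 214 in p53-/- cells, out of 18592 annotated. They made 286 genes in all, and 52 had a peak in both cell lines, which is 41.9% of the p53+/+ genes and 24.3% of the p53-/- genes. In 49 of the 52 genes the highest peaks of both lists overlapped, with a median shift of 26.5 bp between their centres. The p53-/- peak was the longer in 46 of the 52. Its percentile within its own list was the higher in 40 of the 52. Since the lists differ in depth, neither count is a comparison of binding.

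**Figure D2:**
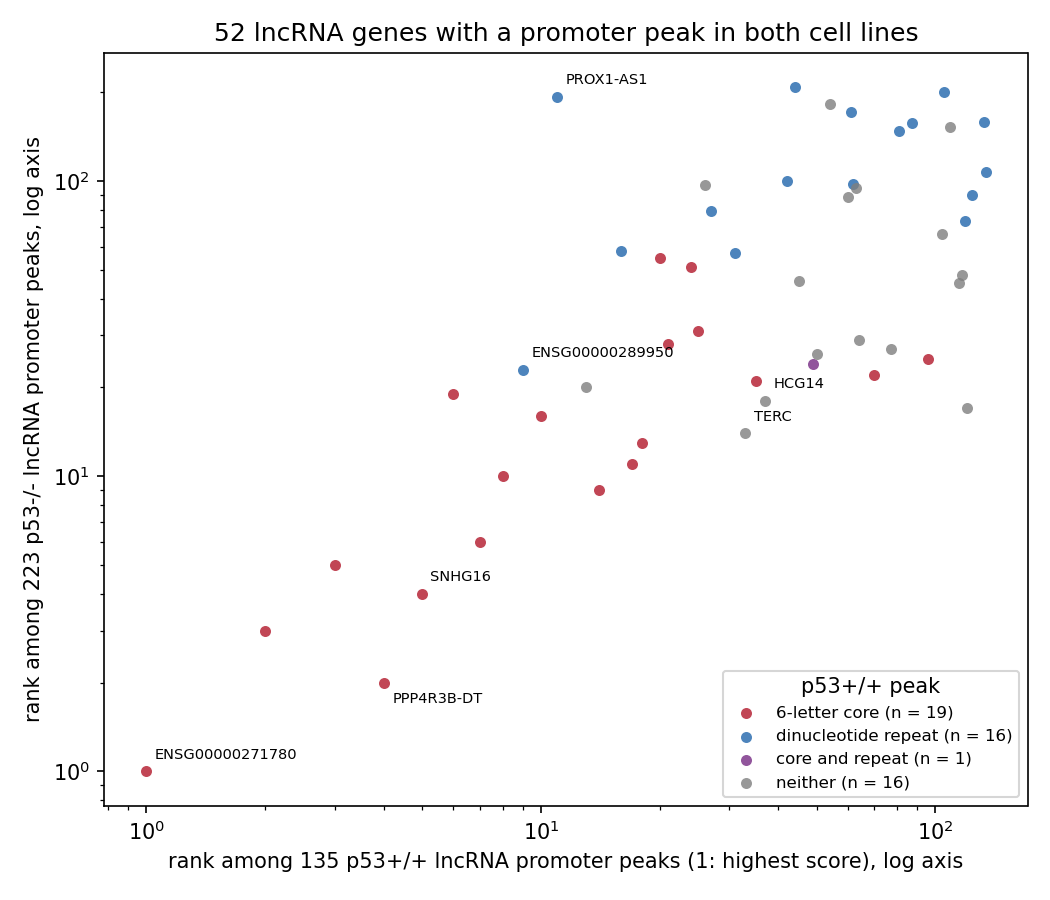
Rank of the highest promoter peak of each of the 52 lncRNA genes found in both cell lines, among the 135 p53+/+ peaks (horizontal, log axis) and the 223 p53-/- peaks (vertical, log axis), with 1 the highest score. Points are genes coloured by the kind of the p53+/+ peak (6-letter core: TCGCGA); the highest ranks in both lists are TCGCGA peaks, led by ENSG00000271780 at rank 1 in both, and PROX1-AS1 stands at rank 11 against rank 193.

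Some genes held unlike places in the lists, which are given side by side and are no comparison of binding. PROX1-AS1, which starts 77 bp from the homeobox transcription factor gene PROX1, had a repeat peak with a score of 206.7 and rank 11 of 135 in p53+/+ cells, and with a score of 58.7 and rank 193 of 223 in p53-/- cells. TERC had a score of 95.3 and rank 33 in p53+/+ cells, and a score of 928.4 and rank 14 in p53-/- cells. SF1-DT, partner of a splicing factor gene, scored 55.0 in p53+/+ cells and 837.6 in p53-/- cells. HCG14 had adjoining peaks in p53+/+ cells, scoring 92.4 and 67.9, where p53-/- cells had a peak of 470 bp over the same stretch that scored 805.5. These genes were singled out after their values were seen.

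A few lncRNA genes with known roles had a promoter peak. Of 33 annotated snoRNA host genes, 3 had a promoter peak in p53+/+ cells (9.09%, 95% interval 3.14 to 23.6), namely SNHG16, SNHG15 and SNHG27. The SNHG15 and SNHG27 peaks scored 53 and 52.0, close to the lowest score of the list (50). Of the 33, 2 had a peak in p53-/- cells (6.06%, 1.68 to 19.6), SNHG16 and SNHG9. SNHG9, 54 bp from the ribosomal protein gene RPS2, scored 456.4. Of 81 annotated microRNA host genes, MIR548XHG had a p53+/+ peak scoring 87.6 (1.23%, 0.218 to 6.67). MIR3667HG, MIR548XHG and MIR7-3HG had p53-/- peaks scoring 293.5, 52.7 and 69.1 (3.70%, 1.27 to 10.3). The share of all annotated lncRNA genes with a promoter peak was 0.667% in p53+/+ cells and 1.15% in p53-/- cells, so the interval of the microRNA hosts includes it in p53+/+ cells, and their interval in p53-/- cells and both intervals of the snoRNA hosts lie above it on counts of 2 or 3.

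Of 35 annotated well-studied lncRNA genes, 2 had a promoter peak in each cell line (5.71%, 1.58 to 18.6), an interval above the shares of all annotated lncRNA genes. These were TERC and CDKN2B-AS1 in p53+/+ cells and TERC and MIAT in p53-/- cells. CDKN2B-AS1, also called ANRIL, is antisense to a tumour suppressor locus and had the repeat peaks printed above. The first scored 98.1 and lay 686 bp upstream of a TSS inside the gene, and the second scored 61.1 and lay 321 bp upstream of the first TSS, beside CDKN2A. The MIAT peak scored 66.8, below the median of its list (73.9). None of 10 annotated p53-linked lncRNA genes had a promoter peak in either list (0 of 10, interval up to 27.8%), which includes the shares of 0.667% and 1.15%. None of 24 p53 target genes was the coding partner of a divergent lncRNA with a peak in either list, where 0.169% and 0.372% of all coding genes were, so lists of this length can say little. The gene lists were written with earlier results of these data known.

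About as many peaks stood at lncRNA genes known only by an Ensembl identifier as at named ones, with 65 of 135 in p53+/+ cells and 108 of 223 in p53-/- cells. Antisense names followed with 24 and 39, LINC names with 22 and 30, and divergent transcripts (names ending in -DT) with 9 and 23. The share of each name class among all annotated lncRNA genes is not given here. These counts therefore do not show whether a class was over- or under-represented. LINC genes, which as a rule lie apart from coding genes, had no TCGCGA in 22 peaks in p53+/+ cells and had it in 2 of 30 in p53-/- cells, where 24 of 30 were repeat peaks. Both are near the shares over all peaks, which had TCGCGA in 4.79% and 4.85%, and repeats in 75.9% in p53-/- cells. The -DT genes had TCGCGA in 4 of 9 and 11 of 23 peaks. Of their peaks, 9 of 9 in p53+/+ cells and 9 of 23 in p53-/- cells overlapped a peak of the other cell line. Divergent peaks as a whole did so in 82.1% and 41%, and all peaks in 20.9% and 13.4%. Whether -DT genes differ from other divergent pairs in this was not tested.

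Peaks lay on both sides of the starts. In p53+/+ cells 70 were centred upstream and 65 downstream of the TSS, and in p53-/- cells 124 and 99. The peak covered the TSS in 39 of 135 and 86 of 223. The centre was in an exon of the lncRNA in 35 and 51 peaks, in an intron in 47 and 70, and outside the gene in 53 and 102. The TCGCGA nearest the centre was upstream of the TSS in 16 of 27 peaks in p53+/+ cells and in 38 of 53 in p53-/- cells, at a median distance of 45.5 and 49.5 bp. A p53-/- peak on chromosome 8 was left out of this count. The letters were inside the peak itself in 21 of 27 and 48 of 54.

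Divergent pairs made up 39 of the 135 peaks in p53+/+ cells (28.9%, 95% Wilson interval 21.9 to 37.0) and 78 of the 223 in p53-/- cells (35.0%). A pair was counted when a coding TSS lay within 1 kb of the lncRNA TSS on the opposite strand. Most were head to head, 34 and 60, with a median gap of 163.5 and 125 bp between the starts, and in 5 and 18 the 5′ ends overlapped. The peak centre lay between the starts in 16 of 34 (47.1%) and 24 of 60 (40%) of the head to head pairs. Of all annotated lncRNA genes, 20.8% had such a partner at any of their annotated starts. This is a wider rule than that for peaks, which used only the TSS nearest the peak. Of the genes divergent by this wider rule 1.01% had a p53+/+ peak and 2.12% a p53-/- peak, against 0.577% and 0.896% of the others. Intervals on these shares cover counting error only, and peaks are not replicates.

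TCGCGA was far more frequent at divergent pairs than at the other lncRNA promoters. It was present in 27 of 135 lncRNA promoter peaks in p53+/+ cells (20%) and 54 of 223 in p53-/- cells (24.2%), where all peaks of the lists had it in 4.79% and 4.85%. Among divergent peaks it was present in 21 of 39 (53.8%) and 39 of 78 (50%), and among the others in 6 of 96 (6.25%) and 15 of 145 (10.3%). ENSG00000287244, ENSG00000271860, ENSG00000289155 and BDNF-AS each gave more than 1 of the 21, so the 21 are not all separate promoters. Each peak was counted, and the intervals treat peaks as separate. The difference between divergent and other peaks was 47.6 percentage points in p53+/+ cells (95% Newcombe interval 30.9 to 62.6) and 39.7 in p53-/- cells (27.3 to 51.2). Coding promoter peaks had it in 39.3% and 32.4%, so that divergent lncRNA promoters exceeded them by 14.6 points in p53+/+ cells (-1.26 to 29.7) and by 17.6 points in p53-/- cells (6.32 to 28.8). The interval of the first includes 0. Distal peaks had TCGCGA in 0.235% and 0.324%.

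The full palindrome CTCGCGAG gave the same order. It was present in 13 of 135 peaks in p53+/+ cells (9.63%) and 25 of 223 in p53-/- cells (11.2%), against 2.67% of all peaks in both lists. Of these, 12 of 13 and 20 of 25 were divergent. It occurred in 63 of the 18592 windows centred on 1 TSS per lncRNA gene (0.339%), and in 1.23% of those at coding genes. Of the 63 lncRNA starts with CTCGCGAG, 22 had a p53+/+ peak within 1 kb (34.9%, 24.3 to 47.2) and 32 had a p53-/- peak (50.8%, 38.8 to 62.7). Among all lncRNA starts these shares were 0.936% and 1.74%. A peak counted here whichever TSS was nearest to it, so these shares are not of lncRNA promoter peaks alone. Starts of coding genes with CTCGCGAG had a peak in 37.5% and 55.2%, and the share among all coding starts is not given here. Of the 63 lncRNA starts, 55 lay in CpG-rich sequence by the limits given below, against 21.6% of all lncRNA starts. The part of this in the difference of shares was not tested. A match of letters is a description and not a mapped binding site.

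The members that held the letters were almost all CpG-rich, meaning that the sequence within 250 bp either side of the centre had at least 50% GC and an observed over expected CpG ratio of at least 0.6. In p53+/+ cells 50 of 135 peaks were CpG-rich (37.0%) against 8.33% of all peaks, and in p53-/- cells 91 of 223 (40.8%) against 10.2%. Divergent peaks were CpG-rich in 76.9% and 84.6%, and coding promoter peaks in 57.5% and 65.4%. The part of this in the TCGCGA difference between divergent and coding promoter peaks was not tested. TCGCGA was present in 26 of the 50 and 51 of the 91 CpG-rich members (52.0% and 56.0%). It was present in 1 of 85 and 3 of 132 of the other members. Base composition alone differs between these groups, so CpG-rich windows at lncRNA starts serve as a closer comparison, and 5.34% of those held TCGCGA. Within the CpG-rich members, TCGCGA was present in 21 of 30 divergent and 5 of 20 other peaks in p53+/+ cells, and in 39 of 66 and 12 of 25 in p53-/- cells. The intervals in p53-/- cells, 47.0 to 70.1% and 30.0 to 66.5%, overlapped.

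Without a divergent coding partner TCGCGA was found at peaks of high and of low score. The 6 non-divergent p53+/+ peaks that held it were ENSG00000271780, SNHG16, ENSG00000272892, ENSG00000289543, ENSG00000288898 and HCG14, scoring 967.0, 388.9, 249.6, 122.5, 95 and 67.9. All 6 genes had a TCGCGA peak in p53-/- cells too, scoring 3177, 2186, 1208, 198.5, 695.4 and 805.5 in the same order. HCG14 stood at the p53+/+ list median (67.9), and ENSG00000289543 lay 4233 bp from a coding TSS while the others were over 5 kb away. Of the 15 non-divergent p53-/- peaks with TCGCGA, 7 were among the 56 members of highest score and 4 among the 56 of lowest score.

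**Figure D3:**
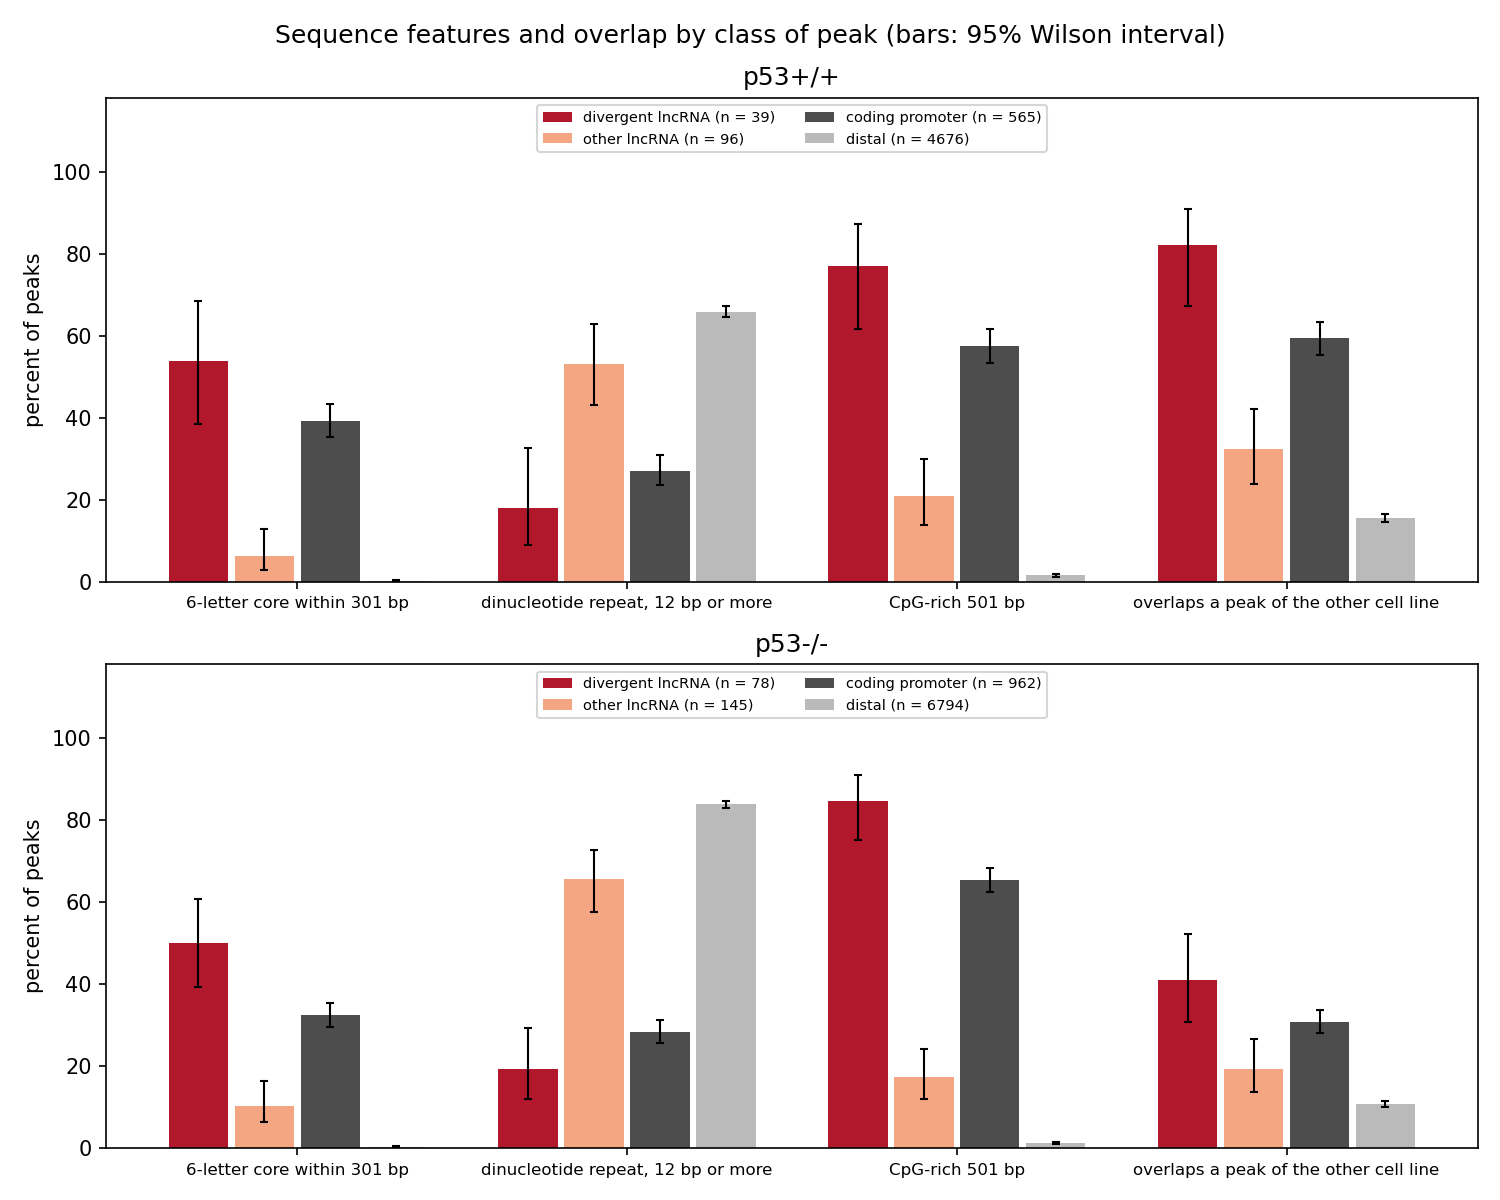
Percent of peaks with each feature in p53+/+ (top) and p53-/- cells (bottom), for lncRNA promoter peaks divergent from a coding gene, other lncRNA promoter peaks, coding promoter peaks and distal peaks, with 95% Wilson intervals as error bars. The 6-letter core (TCGCGA) stands at 53.8% and 50% in divergent peaks against 6.25% and 10.3% in the others, and the dinucleotide repeat shows the opposite order.

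Repeats were commoner at peaks without a coding partner. Runs of 12 bp or more were found in 58 of 135 lncRNA promoter peaks in p53+/+ cells (43.0%) against 61.1% of all peaks, and in 110 of 223 in p53-/- cells (49.3%) against 75.9%. It was present in 7 of 39 divergent (17.9%) and 51 of 96 other peaks (53.1%) in p53+/+ cells, and in 15 of 78 (19.2%) and 95 of 145 (65.5%) in p53-/- cells. The non-divergent peaks still had fewer repeats than distal peaks, with a difference of -12.7 points in p53+/+ cells (-22.7 to -2.98) and of -18.3 points in p53-/- cells (-26.4 to -11.0). In p53+/+ cells the longest runs were pure TC in 18, pure TG in 14 and mixed in 26, and in p53-/- cells 48, 17 and 45. The share of peaks with a repeat and no TCGCGA grew with the distance of the nearest coding TSS. It went from 5 of 38 within 1 kb to 26 of 42 beyond 50 kb in p53+/+ cells, and from 10 of 74 to 52 of 64 in p53-/- cells.

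Repeat peaks also had unique central bases less often than peaks with TCGCGA. The central 31 bases occurred once in hg19 in 64.4% of the lncRNA promoter peaks in p53+/+ cells and 64.6% in p53-/- cells, against 51.6% and 46.5% of all peaks. Of the peaks with TCGCGA alone this held for 25 of 25 and 46 of 50, and of the repeat peaks for 18 of 56 and 44 of 106. How far the aligner's placement of repeated reads shaped the repeat peaks was not tested.

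TCGCGA was concentrated among the members of highest score. The members of each list were ordered by score and split into 4 groups of 33 or 34 peaks in p53+/+ cells and of 55 or 56 in p53-/- cells. In the group of highest score, 17 of 34 and 34 of 56 peaks held TCGCGA (50% and 60.7%). The share in the lower groups was between 8.82% and 11.8% in p53+/+ cells and between 7.27% and 17.9% in p53-/- cells. Divergent pairs made up 18 of 34 and 39 of 56 of the highest group. Repeats were present in 8 of 34 and 6 of 56 of it, against 15 of 34 and 37 of 56 of the lowest group. Among the peaks of the highest group without a divergent partner, 4 of 16 and 7 of 17 held TCGCGA. Scores above the median of the whole list were held by 56.3% and 62.8% of the members, by 66.7% and 79.5% of the divergent ones, and by 56.1% and 66.2% of coding promoter peaks.

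**Figure D4:**
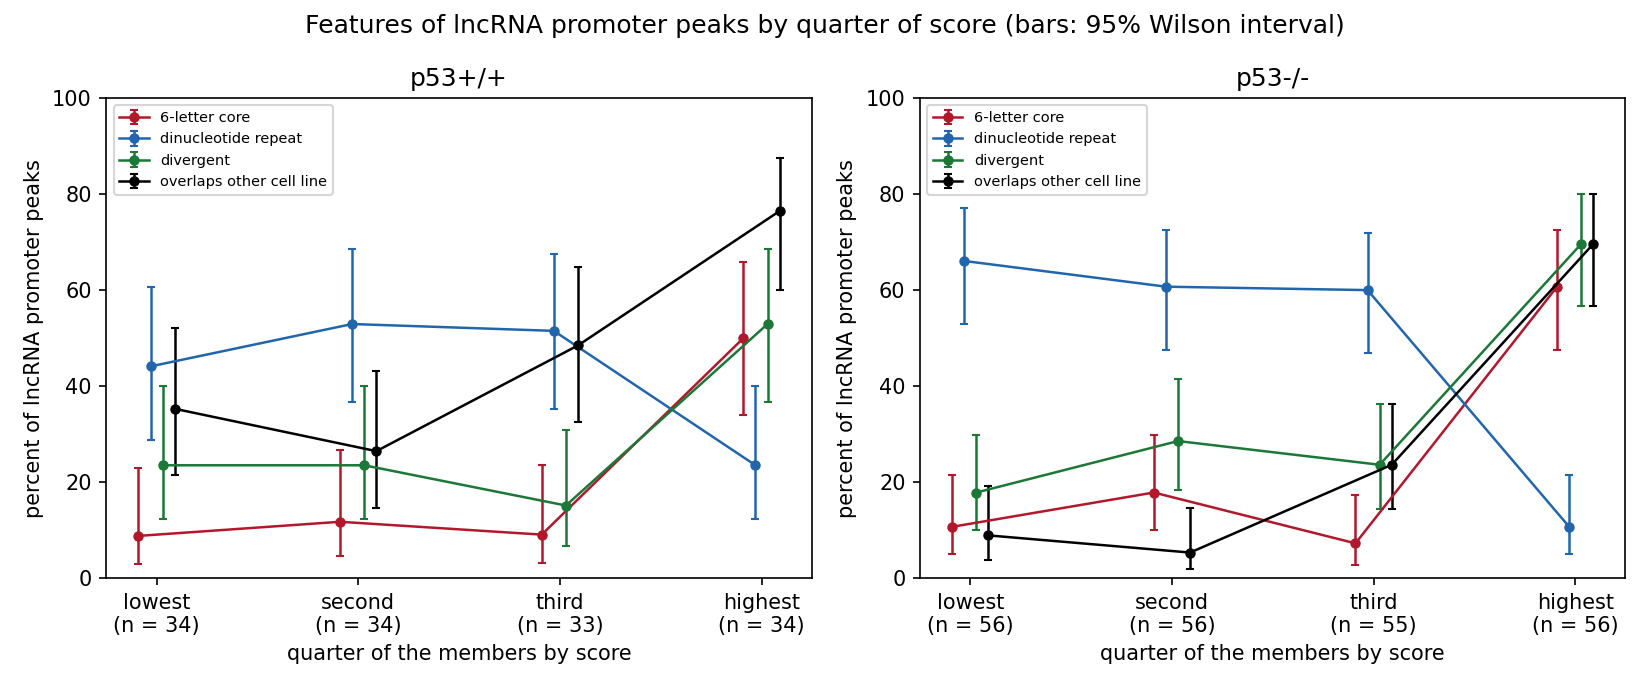
Percent of lncRNA promoter peaks with TCGCGA (6-letter core), a dinucleotide repeat, a divergent coding partner and an overlapping peak in the other cell line, in the 4 groups by score from lowest to highest, in p53+/+ (left) and p53-/- cells (right), with 95% Wilson intervals. In p53-/- cells the share with TCGCGA stays between 7.27% and 17.9% in the lower groups and reaches 60.7% in the highest, where repeats are at 10.7%.

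Peaks at lncRNA promoters overlapped a peak of the other cell line more often than peaks in general did. By at least 1 bp, 63 of 135 p53+/+ peaks overlapped a p53-/- peak (46.7%, 38.5 to 55.1) against 20.9% of all p53+/+ peaks, and 60 of 223 p53-/- peaks overlapped a p53+/+ peak (26.9%, 21.5 to 33.1) against 13.4%. Distal peaks overlapped in 15.5% and 10.6%, and coding promoter peaks in 59.5% and 30.8%. The share was 32 of 39 for divergent peaks in p53+/+ cells (82.1%) and 31 of 96 for the others (32.3%), a difference of 49.8 points (32.0 to 62.1). The p53-/- shares were 32 of 78 (41%) against 28 of 145 (19.3%), a difference of 21.7 points (9.20 to 34.1). Longer peaks overlap more easily, and divergent peaks had a median length of 148 bp in p53+/+ cells and 283 bp in p53-/- cells against 68.5 and 77 bp for the others. The part of length in these differences was not tested. Some divergent p53+/+ peaks stood at the same gene, and each was counted.

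All 27 p53+/+ peaks with TCGCGA, with or without a repeat, overlapped a p53-/- peak, whereas 14 of 56 p53+/+ repeat peaks and 22 of 52 peaks with neither did. The 27 peaks are not all separate promoters, since ENSG00000287244, ENSG00000271860, ENSG00000289155 and BDNF-AS each gave more than 1. How often the same p53-/- peak overlapped several of them was not counted. Of the 54 p53-/- TCGCGA peaks, 29 overlapped a p53+/+ peak. Those 29 scored from 169.3 to 3177, with a median of 860.0, and had a median length of 535 bp. The 25 without a p53+/+ counterpart scored from 50.8 to 394.3, with a median of 80.0, and had a median length of 156 bp. The scores of these groups overlapped between 169.3 and 394.3. Whether a deeper p53+/+ library would list more of the 25 was not tested.

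Some members had no peak centre of the other list within 1 kb, 70 of 135 in p53+/+ cells (51.9%) and 157 of 223 in p53-/- cells (70.4%). Of all peaks 77.8% and 85.2% had none. Among the 20 highest p53-/- members there was none. The highest-scoring such p53-/- member was DNAJC27-AS1, at rank 33, with a score of 394.3 and 71 bp from the start of DNAJC27. ENSG00000290792, partner of the histone gene H2AC19, scored 387.1, and ENSG00000249207, partner of the ciliary transport gene WDR19, scored 354.2. MAD2L1-DT, partner of the spindle checkpoint gene MAD2L1, scored 296.7. Among the 20 highest p53+/+ members 2 had no counterpart, LINC02564 with 182.9 and ENSG00000254020 with 150.5. The LINC02564 peak, chr18:9996-10366, is at the very start of the chromosome 18 assembly, and its central 31 bases occurred 667 times. The peak of ENSG00000254020 was 37 bp long. No replicate bears on any of these, and they were singled out after their values were seen.

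The 10-letter p53 consensus half-site was looked for inside each peak and up to 50 bp beyond its ends. It was present in 4 of 135 members in p53+/+ cells (2.96%, 1.16 to 7.37) against 2.67% of all p53+/+ peaks. In the other list it was present in 15 of 223 (6.73%, 4.12 to 10.8) against 3.17% of all p53-/- peaks. Without the added 50 bp the shares were 0.741% against 0.585% of all peaks in p53+/+ cells and 2.69% against 0.763% in p53-/- cells, on 1 and 6 members. Coding promoter peaks had it in 5.31% and 5.51%. None of the 39 divergent p53+/+ peaks held it (interval up to 8.97%), and 7 of 78 divergent p53-/- peaks did (8.97%). The difference between the cell lines was 3.76 percentage points (-1.36 to 8.22). This interval treats the lists as independent and is no test between the cell lines. The members had a median length of 85 bp in p53+/+ cells and 111 bp in p53-/- cells, so unlike lengths of sequence were searched. The part of length in the difference was not tested. The letters were within 50 bp of the top peak, ENSG00000271780, in the p53 knockout cells, and not in the narrower p53+/+ window.

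The share of members with TCGCGA was 4.22 points higher in p53-/- cells (-4.91 to 12.6), and that with CTCGCGAG 1.58 points higher (-5.50 to 7.79). The share with a repeat was 6.36 points higher (-4.28 to 16.7), and that in CpG-rich sequence 3.77 points higher (-6.69 to 13.9). These intervals treat the lists as independent, although the lists share loci. There was no replicate library, and genotype and depth cannot be told apart. The intervals are therefore no test between the cell lines, and they do not show that the shares are equal.

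At the edge of the 1 kb window the last p53+/+ member was at LINC01865, 962.5 bp from the TSS with a score of 56.4, and the first peak outside was 1027.5 bp from ENSG00000254846 with a score of 68.6. In p53-/- cells the last member was 995 bp from ENSG00000283828 with a score of 66.1, and the first outside was 1012.5 bp from ENSG00000278035 with a score of 78.5. A peak in each list, at DGAT1 and at MTAP, was equally far from a coding and a lncRNA TSS and was left out.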

How the data were processed

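SMAR1 binding in untreated HCT116 cells with and without p53 was measured by ChIP-seq in 1 anti-SMAR1 library per line. The authors sequenced single ends, trimmed them (cutadapt 1.2.1), aligned them to hg19 (Bowtie2 2.2.1), handled the alignments with SAMtools 0.1.19 and called peaks per library (MACS 1.4.2), per the labels and the methods of the study. Versions are those of the submitters' processing notes. The deposited lists hold positions and a MACS score per peak, read as -10 log10 of the p-value from its lowest value. The authors then filtered on fold enrichment, a step that the lists do not allow to be repeated. Whether IgG served as the MACS control is not given in the sources used here. The lists hold no read counts.

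BED starts were converted to 1-based positions. Start sites were those of all transcripts of GENCODE release 44 mapped to hg19, a newer annotation than that of the authors, and sequence was read from hg19. The members, gene lists and motifs were chosen with earlier results of these data known. Named peaks were the 10 highest members of each list, the 10 genes highest in both lists by the lower of their percentiles within a list, and members of the gene lists. A peak that this rule names is not reported here. Others are said to be singled out afterwards.

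Shares have 95% Wilson intervals and differences 95% Newcombe intervals, which cover counting error only. No p-value was computed, since each line has 1 library and peaks are not replicates. Alternatives were a score filter, other windows, GENCODE basic transcripts, the peak edge, unique central bases and other limits for each feature. The scripts were tested on simulated data in 6 checks of 2000 items, of which 100% were called correctly. Software was Python 3.11.15 with matplotlib 3.10.9, numba 0.67.0, numpy 2.4.6, pysam 0.24.0, pandas 2.3.3 and scipy 1.17.1.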

Additional observations from a re-analysis of the deposited data

How the results depend on the processing

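Of 128 alternative values, 70 stayed within the interval of the value given above, or within 1.5 times it for counts, and 58 did not. The cause was not tested except where an alternative counts fewer peaks by its own construction. All alternatives varied counts and shares over all members of a list, and the contrasts between divergent and other peaks were not varied. Non-divergent peaks over 5 kb from a coding TSS held TCGCGA in 5.88% in p53+/+ cells and 9.38% in p53-/- cells. They held a repeat in 55.3% and 68.0%. Values for p53+/+ cells come first, then those for p53-/- cells where both moved. Peaks at or above the median score gave 80 and 147 members, 76 genes in p53+/+ cells, and in p53-/- cells 42.2% divergent, 41.5% with a repeat, 16.3% with CTCGCGAG and 49% CpG-rich. The share above the median was not computed there, since it is fixed. A window of 500 bp gave 86 members, 78 genes and 58.1% overlapping the other list in p53+/+ cells, 45.3% and 47.7% divergent, 29.1% and 36.1% with a repeat, 53.5% and 58.1% CpG-rich, and in p53-/- cells 70.3% above the median and 16.1% with CTCGCGAG. A window of 2 kb gave 203 members, 188 genes and 35.5% overlapping in p53+/+ cells, 21.2% and 26.4% divergent, 52.2% and 57.9% with a repeat, and 25.6% and 29.6% CpG-rich. Measuring from the nearest peak edge lowered CTCGCGAG to 4.88% and 6.32%, and in p53-/- cells gave 22.1% divergent, 19.5% overlapping, 58.4% with a repeat and 30.5% CpG-rich. Peaks with central bases found once numbered 87 and 144, at 78 and 138 genes, with 37.9% and 45.8% divergent, 56.3% and 34% overlapping, 21.8% and 31.9% with a repeat, 46% and 54.2% CpG-rich, and 69.4% above the median in p53-/- cells. Requiring an overlap of at least 50% of both peaks gave 25.9% and 18.8%. Repeats of at least 8 bp gave 56.3% and 58.3%, and of at least 20 bp 34.8% and 38.1%. TCGCGA in place of CTCGCGAG, chosen after seeing the data, gave 20% and 24.2%. The p53 consensus in the peak alone gave 0.741% and 2.69%. The 90th percentile of the score in place of the median was passed by 19.3% and 29.6%. No paired analysis was possible because each group has 1 library.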
